A study of Saccharomyces cerevisiae with 6 samples.

Results

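Nicotinamide adenine dinucleotide (NAD), the redox carrier and the co-substrate of the sirtuin deacetylases, is made in budding yeast from tryptophan or recovered from nicotinamide, and the mRNA of the genes for these routes was measured on 6 arrays. The 10 genes described here are BNA2, BNA4, BNA5, BNA1, BNA6 and BNA3 of the tryptophan route, PNC1 and NPT1 of the salvage route, and NMA1 and NMA2 of the step that both routes share. They were chosen by pathway role from a proposal made with the differences between K4,79R and wild type on these same arrays known, so the values below describe the genes and are no independent evidence about the pathway. All 10 are on the array, read by 12 probe sets, among 5656 genes with a probe set of their own. All 10 also passed a filter that removed the dimmest 20% of probe sets by mean signal, which 5380 genes passed.

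The study compared 3 samples of yeast with histone H3 lysines 4 and 79 replaced by arginine (H3 K4,79R) with 3 samples of its wild type. Set1 methylates lysine 4 and Dot1 methylates lysine 79, and neither enzyme can act on arginine. Both strains were grown in YPD, a rich medium with glucose, to mid-log phase, and the labels give no strain background, no age of the cultures and no account of how the histone genes were replaced. Nor do they say whether samples came from separate cultures, so the p-values reflect the scatter among 6 samples that may have been technical replicates.

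In the tryptophan route, a dioxygenase opens the indole ring, a formamidase and a monooxygenase make hydroxykynurenine, and kynureninase and a second dioxygenase lead to quinolinate, which a phosphoribosyltransferase turns into nicotinate mononucleotide. In the salvage route, nicotinamide released by sirtuins is deamidated and joined to phosphoribose, which gives the same mononucleotide. The routes meet at the adenylyltransferase step. Several BNA genes are known to be repressed by the deacetylase Hst1 together with the DNA-binding protein Sum1 and its partner Rfm1, and Hst1 itself uses NAD.

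Signals are on the linear scale of MAS5, the Affymetrix summary of a probe set. The log2 difference is K4,79R minus wild type after an offset of 3.605 was added to each signal, so folds from it understate the change of dim genes. A gene is called where limma gave a Benjamini-Hochberg adjusted p under 0.05 over all 5380 genes. By that rule 151 genes were higher and 78 lower in K4,79R. The split depended on scaling, with 181 higher and 187 lower after quantile normalization, 156 and 202 with a common median, and 183 and 165 with the authors' constants on the K4,79R arrays divided out. K4,79R array 1 correlated less well with its own group (mean r over probe sets 0.970) than the other 5 arrays did (0.977 to 0.989). Without it 863 genes were higher and 260 lower. The median log2 difference of all genes was then 0.115, against 0.039 with all 6 arrays. The constants were 0.922 on K4,79R array 1 and 1.09 and 1.11 on arrays 2 and 3. With all 6 arrays and the constants divided out, the median was -0.0094. Their part in the calls made without array 1 was not tested. The 3′ to 5′ signal ratio of SPT15, a measure of RNA integrity, was 5.71, 2.79 and 3.35 on the K4,79R arrays 1, 2 and 3, against 5.09, 5.02 and 6.15 on the wild-type arrays. That of ACT1 was 1.00, 1.55 and 1.498 on the K4,79R arrays, against 1.58, 1.59 and 1.64 on the wild-type arrays, so that array 1 stood apart in K4,79R. The part of RNA integrity in the results below was not tested. The brightest probe set listed for both histone H3 genes, HHT1 and HHT2, read 4290 ± 664 in K4,79R and 4864 ± 682 in wild type (SD, n = 3 each). A dimmer one read 245 ± 95.5 in K4,79R and 422 ± 12.2 in wild type, without overlap and without a call in the fit of all probe sets (log2 -0.86 ± 0.28, limma adjusted p = 0.142), and the other lay near background. None of them checks the substitution.

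Of the 10 genes 3 were called, BNA2 and BNA3 higher and BNA6 lower. Over all genes tested 4.26% were called, 2.81% higher and 1.45% lower. The 3 values of one strain lay wholly outside the 3 of the other for 8 of the 10, with K4,79R above for 3 genes and below for 5, and such separation was seen for 28.8% of all genes tested. Since the genes were proposed with this comparison known, nothing is read from these shares. The median log2 difference of the 10 genes was -0.14, against 0.039 for all genes, while the median size of the difference regardless of sign was 0.43, against 0.21. The genes of this pathway thus had differences of both signs, 5 positive and 5 negative.

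**Figure D1:**
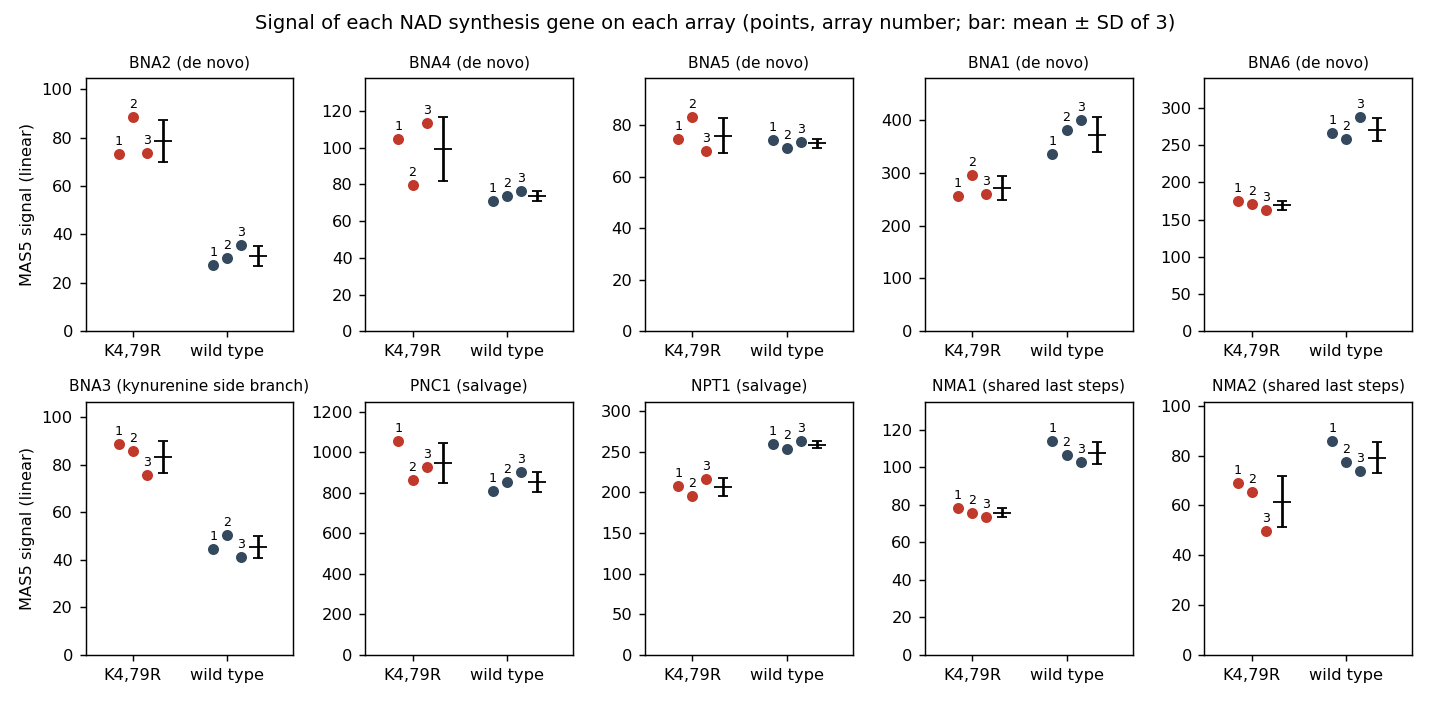
MAS5 signal on a linear axis from 0 for each of the 10 genes, with K4,79R arrays on the left and wild-type arrays on the right of each panel; points are arrays with their number, and the bar beside them is the mean ± SD of 3. BNA2, BNA4 and BNA3 had all K4,79R points above wild type, BNA5 and PNC1 overlapped, and BNA1, BNA6, NPT1, NMA1 and NMA2 had all K4,79R points below.

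The first gene of the tryptophan route had the largest difference. BNA2 (YJR078W), which encodes the tryptophan dioxygenase that opens the indole ring, read 73.4, 88.6 and 73.8 on the K4,79R arrays 1, 2 and 3, against 27.3, 30.2 and 35.6 on the wild-type arrays. The lowest K4,79R value lay above the highest wild-type value by more than the range within either strain. BNA2 averaged 78.6 ± 8.65 in K4,79R and 31.0 ± 4.21 in wild type (SD, n = 3 each), and rose 2.38-fold (log2 1.25 ± 0.15 SE, limma adjusted p = 0.00771). Its difference ranked 29 in size among the 5380 genes. The call was lost without wild-type array 1 (log2 1.17, limma adjusted p = 0.0583) or without wild-type array 2 (log2 1.23, limma adjusted p = 0.0728).

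BNA4 (YBL098W), the kynurenine monooxygenase gene, read 105, 79.7 and 113 in K4,79R, against 70.9, 73.5 and 76.2 in wild type. The K4,79R arrays were all higher, but array 2 lay close to wild type, and the SD was 17.5 in K4,79R and 2.65 in wild type. The log2 difference of 0.40 ± 0.15 was not called (limma adjusted p = 0.177). BNA5 (YLR231C), which encodes kynureninase, read 74.6, 83.2 and 70.0 in K4,79R and 74.3, 71.0 and 73.6 in wild type. Its groups overlapped, and the log2 difference of 0.052 had a 95% interval of -0.24 to 0.34, so that a rise or fall as large as that of BNA2, BNA3 or BNA6 lies outside it. The sign of this difference was negative with a common median (log2 -0.045) and without K4,79R array 2 (log2 -0.013).

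Both genes of the last steps of the tryptophan route had lower signals in K4,79R, and 1 of them was called. BNA1 (YJR025C), the hydroxyanthranilate dioxygenase gene, read 256, 297 and 260 in K4,79R, against 336, 381 and 401 in wild type. All K4,79R values were below all wild-type values, with a log2 difference of -0.45 ± 0.12 that did not pass the threshold (limma adjusted p = 0.0711). It passed with quantile normalization (log2 -0.51, limma adjusted p = 0.0414), with the authors' constants divided out (log2 -0.50, limma adjusted p = 0.0441) and without K4,79R array 1 (log2 -0.42, limma adjusted p = 0.0378). BNA6 (YFR047C) encodes the quinolinate phosphoribosyltransferase that closes the route.

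BNA6 read 175, 171 and 162 in K4,79R, against 267, 258 and 288 in wild type. The K4,79R arrays lay within a narrow range far below wild type, at 169 ± 6.22 and 271 ± 15.2 (SD, n = 3 each). BNA6 fell to 0.630 of wild type (log2 -0.67 ± 0.10, limma adjusted p = 0.0164). With single arrays left out its log2 difference stayed between -0.70 and -0.62, and the call held in 1 of 6 cases, that without K4,79R array 1. Without each of the other arrays the limma adjusted p was between 0.0587 and 0.102.

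BNA3 (YJL060W) stands on a side branch: it encodes an aminotransferase that turns kynurenine into kynurenic acid, away from NAD. It read 88.6, 85.8 and 75.6 in K4,79R, against 44.5, 50.5 and 41.4 in wild type, with no overlap. BNA3 rose 1.77-fold (log2 0.83 ± 0.14, limma adjusted p = 0.0215). Like that of BNA6, its call held in 1 of 6 cases with an array left out, that without K4,79R array 1, and the limma adjusted p was otherwise between 0.0688 and 0.107. The log2 difference of BNA3 remained between 0.77 and 0.90 in all of them.

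No salvage gene was called. PNC1 (YGL037C), the nicotinamidase gene, whose product keeps the sirtuin inhibitor nicotinamide low, read 1056, 862 and 927 in K4,79R and 806, 853 and 903 in wild type. These values overlapped, and the log2 difference was 0.15 with a 95% interval of -0.12 to 0.41 (limma adjusted p = 0.499). It was 0.067 without K4,79R array 1. NPT1 (YOR209C), the nicotinate phosphoribosyltransferase gene, read 207, 195 and 217 in K4,79R, against 259, 254 and 263 in wild type. Its groups did not overlap, and the log2 difference was -0.32 ± 0.10 (limma adjusted p = 0.107, and 0.0417 without K4,79R array 1).

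The adenylyltransferase genes of the shared step were both lower without a call. NMA1 (YLR328W) read 78.6, 75.5 and 73.5 in K4,79R, against 114, 106 and 103 in wild type. Its log2 difference was -0.49 ± 0.12, just short of the threshold (limma adjusted p = 0.0556). It was called with a common median (log2 -0.58, limma adjusted p = 0.0464), with the authors' constants divided out (log2 -0.54, limma adjusted p = 0.0489) and without K4,79R array 1 (log2 -0.51, limma adjusted p = 0.0146).

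NMA2 (YGR010W) encodes a second enzyme of the same activity and is the only one of the 10 with several probe sets. The brightest read 69.1, 65.4 and 49.9 in K4,79R, against 86.0, 77.5 and 73.8 in wild type. It bears a suffix that Affymetrix gave to probe sets with probes in common with others, so it is uncertain as a measure of NMA2 alone. Its log2 difference was -0.36 ± 0.16 (limma adjusted p = 0.231), and -0.22 without K4,79R array 3. Without that suffix, one probe set read 32.6, 43.8 and 30.4 in K4,79R, against 52.8, 49.8 and 48.4 in wild type, a log2 difference of -0.47 ± 0.16. The third, the dimmest, read 19.7, 18.2 and 25.9 in K4,79R and 19.0, 16.9 and 15.9 in wild type, a log2 difference of 0.24 ± 0.17. The probe sets of NMA2 thus disagree in sign, and none was called.

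**Figure D2:**
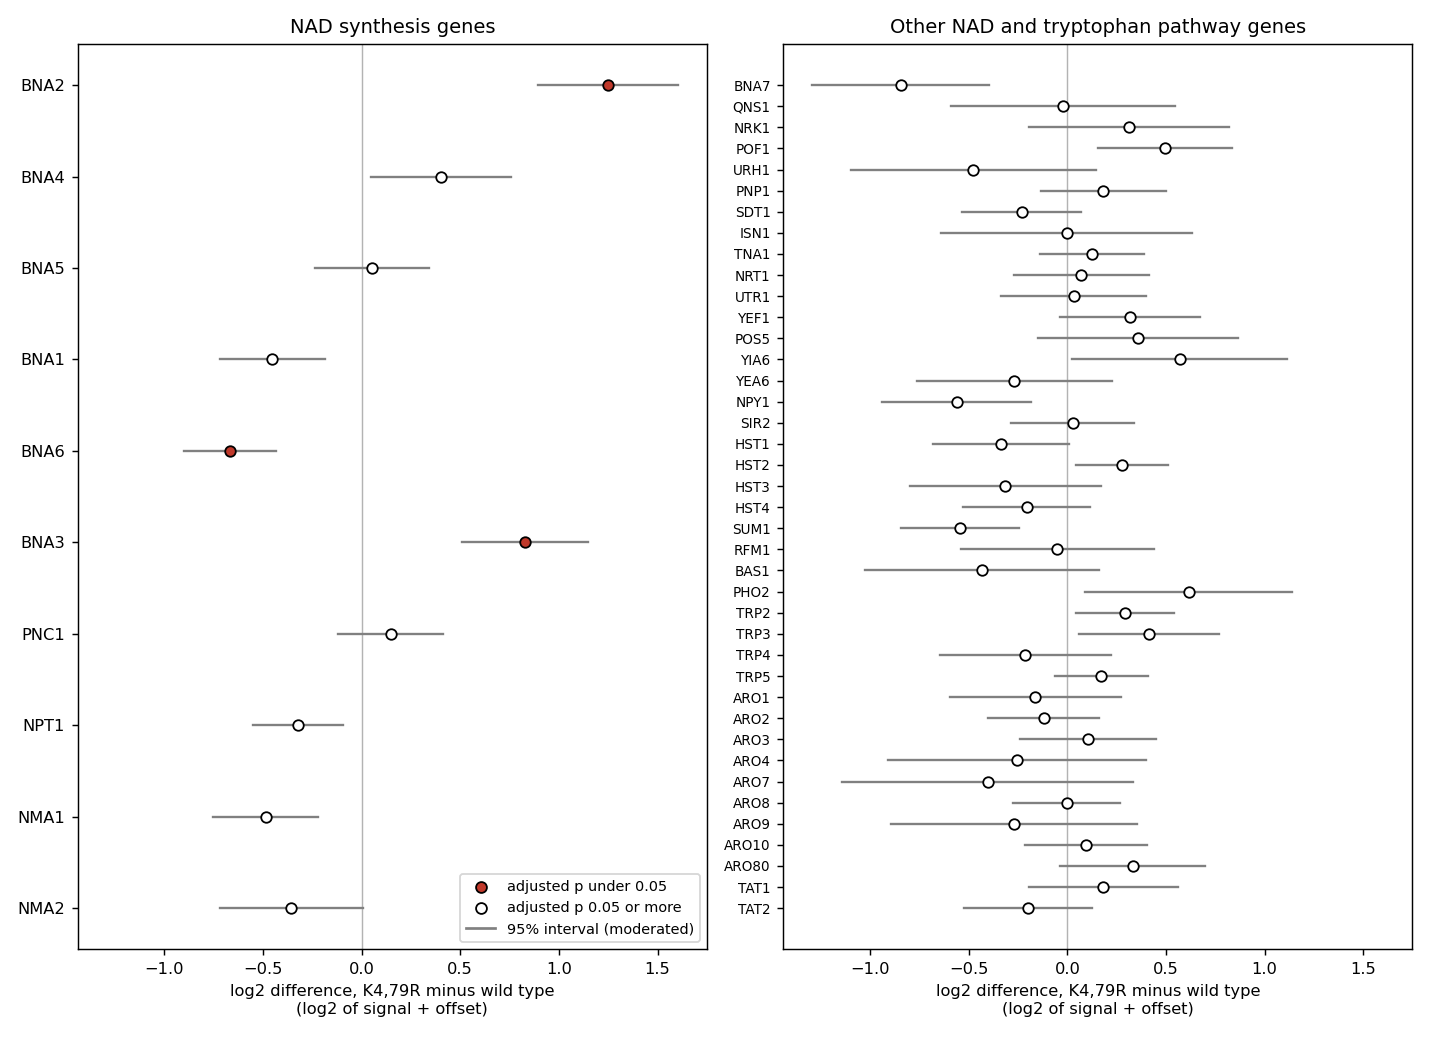
Log2 difference, K4,79R minus wild type, with its 95% moderated interval for the 10 genes (left, in pathway order) and for 40 other genes of NAD and tryptophan metabolism (right); filled points have a limma adjusted p under 0.05. Filled points are BNA2 at 1.25, BNA3 at 0.83 and BNA6 at -0.67 on the left, and there are none on the right.

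A factor common to all genes of an array cancels in the ratio of 2 signals on that array. The pairs given here were chosen after the values were seen, they serve as a description with no test, and the level of such a ratio reflects the probes, so only its difference between strains has meaning. The log2 ratio of BNA2 to BNA1 was -1.80, -1.75 and -1.82 on the K4,79R arrays 1, 2 and 3, against -3.62, -3.66 and -3.49 on the wild-type arrays. The 6 arrays fell into a high and a low set by strain, 1.80 apart on the log2 scale, and the range within a strain was far smaller. Against BNA6, BNA2 stood at -1.25, -0.95 and -1.14 in K4,79R and at -3.29, -3.10 and -3.02 in wild type, a difference of 2.02. BNA3 over BNA1 differed by 1.33. Among pairs that lay on the same side, BNA2 over BNA4 differed by 0.93, BNA2 over BNA3 by 0.47, BNA1 over BNA6 by 0.22 and NMA1 over NPT1 by -0.18.

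In the salvage route the log2 ratio of PNC1 to NPT1 was 2.35, 2.15 and 2.10 in K4,79R, against 1.64, 1.75 and 1.78 in wild type. The strains did not overlap in this ratio, nor did they for NPT1 on its own (log2 -0.32), while PNC1 on its own overlapped. The difference was 0.48.

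**Figure D3:**
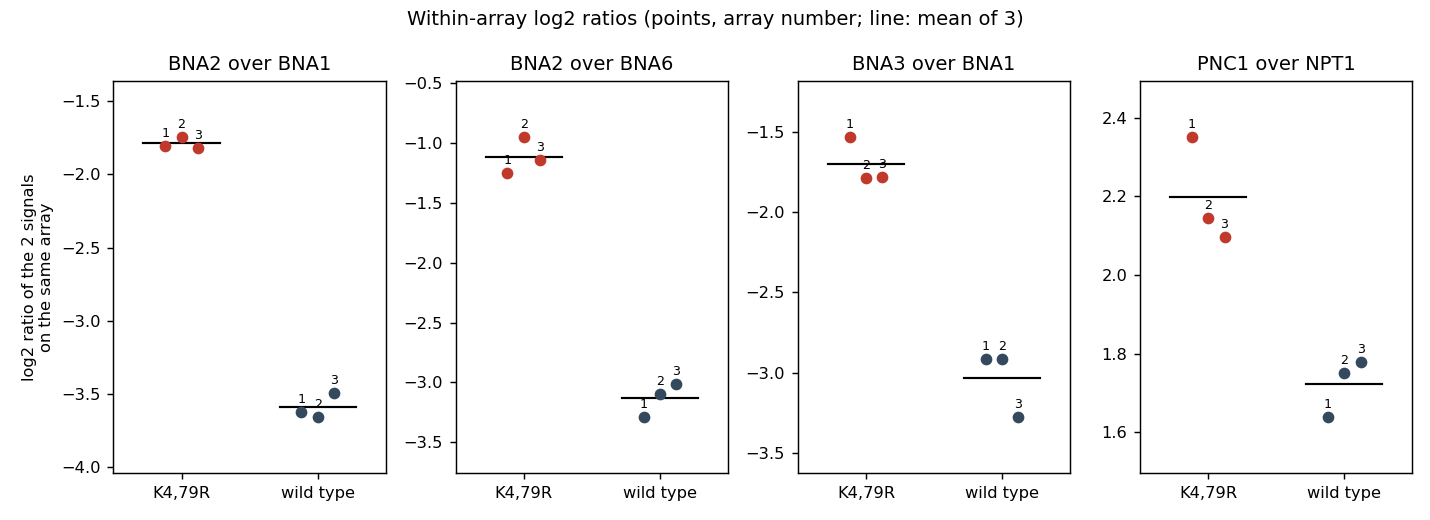
Log2 ratio of the signals of 2 genes on the same array for 4 pairs, with K4,79R on the left and wild type on the right of each panel; points are arrays with their number, lines are means of 3, and the vertical axes do not start at 0 and differ between panels. In each of the 4 panels the K4,79R points lie above the wild-type points, by 1.80, 2.02, 1.33 and 0.48 from left to right.

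Across all 6 arrays, the pattern of BNA2 was most like those of BIO4, AIM39, YNR065C, COA6 and GSP2, with Pearson r between 0.996 and 0.999 on the log2 scale. Pearson r disregards size: in that order their log2 differences were 0.99, 0.25, 0.64, 0.21 and 0.90, against 1.25 for BNA2. Among the 5379 other genes BNA3 ranked 182 by this measure (r = 0.942) and BNA4 1005 (r = 0.723). At the other end, NMA1 ranked 5373 (r = -0.986), NPT1 5358 (r = -0.964) and BNA6 5332 (r = -0.946). These correlations are descriptions over 6 arrays in 2 strains, so the difference between the strains enters all of them.

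Of 41 further genes of NAD and tryptophan metabolism 40 were tested, and none was called in limma, where 9 had an unadjusted p under 0.05, as had 22.2% of all genes tested. Their median log2 difference was -0.0039, with 19 positive and 21 negative. The groups did not overlap for 13 of the 40, against 28.8% of all genes. TRP1, an enzyme gene of tryptophan synthesis, did not pass the filter and read between 0.3 and 3.1 on all 6 arrays. Leaving out K4,79R array 1 gave 6 higher and 4 lower calls among these genes, in a fit that called 20.9% of all genes.

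Among 10 further synthesis and precursor genes, BNA7 had the largest difference. BNA7 encodes the formamidase that acts between BNA2 and BNA4, and it read 27.1, 43.1 and 30.6 in K4,79R, against 61.5, 54.3 and 71.9 in wild type. The groups did not overlap, and the log2 difference was -0.85 ± 0.20, just short of the threshold (limma adjusted p = 0.0522). It was called in 5 of 17 alternatives, quantile normalization (limma adjusted p = 0.0131), a common median (0.00762), constants divided out (0.0201), an offset 4 times larger (0.0497) and without K4,79R array 1 (0.0276). The difference of BNA7 was thus opposite in sign to those of BNA2 before it and BNA4 after it. POF1, which encodes a further adenylyltransferase, stood at 13.8 ± 1.60 in K4,79R and 8.73 ± 0.98 in wild type, both low signals (log2 0.50 ± 0.15, limma adjusted p = 0.103, and 0.0334 without K4,79R array 1).

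The importer genes TNA1 and NRT1 had small differences with groups that overlapped. NRT1 stood at 11.3 ± 0.68 in K4,79R and 10.6 ± 1.68 in wild type, both low signals (log2 0.071 ± 0.15). TNA1, the nicotinic acid permease gene, read 298, 328 and 343 in K4,79R and 302, 267 and 320 in wild type, a log2 difference of 0.12 with a 95% interval up to 0.39. QNS1, whose product makes NAD in the last step, read 35.3, 72.2 and 64.7 in K4,79R and 61.7, 53.1 and 53.2 in wild type. K4,79R array 1 was the lowest of the 6 there and array 2 the highest, and the log2 difference was -0.021 ± 0.25.

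Of 6 genes for NAD kinases, carriers and the pyrophosphatase, NPY1 and YIA6 had the largest differences. NPY1, which encodes an NADH pyrophosphatase, read 70.2, 97.1 and 75.0 in K4,79R, against 126, 133 and 102 in wild type, without overlap (log2 -0.56 ± 0.16, limma adjusted p = 0.0993). It was called after quantile normalization (limma adjusted p = 0.0434), with a common median (0.0240) and with the constants divided out (0.0456). YIA6, a mitochondrial NAD carrier gene, averaged 38.2 ± 2.46 in K4,79R and 25.6 ± 9.25 in wild type (log2 0.57 ± 0.24, limma adjusted p = 0.211). Without wild-type array 3 its log2 difference was 0.32.

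The regulators and NAD-dependent deacetylases included no call among 9 genes. SUM1, which encodes the DNA-binding repressor of the Hst1 complex, read 174, 156 and 188 in K4,79R, against 227, 245 and 290 in wild type. All K4,79R values were lower, at a log2 difference of -0.54 ± 0.13 (limma adjusted p = 0.0581; 0.0416 with the constants divided out and 0.0263 without K4,79R array 1). HST1 read 309, 246 and 365 in K4,79R and 365, 378 and 410 in wild type, where only the highest K4,79R value reached the lowest wild-type value (log2 -0.34 ± 0.15). RFM1 lay near the filter at 6.89 ± 2.15 in K4,79R and 7.23 ± 2.15 in wild type. SIR2 overlapped between strains (log2 0.026 ± 0.13). HST2 was higher without overlap, at 156 ± 1.84 in K4,79R and 128 ± 3.81 in wild type (log2 0.28 ± 0.10, limma adjusted p = 0.165). HST3 and HST4 were lower (log2 -0.31 and -0.21), HST4 without overlap. PHO2, a homeodomain activator gene, had 16.8 ± 3.48 in K4,79R and 9.87 ± 3.36 in wild type (log2 0.62 ± 0.23, limma adjusted p = 0.167). Without wild-type array 1 its log2 difference was 0.40, and without K4,79R array 1 it was 0.76 and called (limma adjusted p = 0.0472).

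In the group of tryptophan and aromatic amino acid genes, 15 of 16 were tested. TRP3 had the largest positive difference, at 124 ± 21.2 in K4,79R and 91.6 ± 8.05 in wild type (log2 0.41 ± 0.15, limma adjusted p = 0.168, and 0.0161 without K4,79R array 1). ARO7, the chorismate mutase gene, had the largest negative one and read 51.3, 133 and 127 in K4,79R and 134, 118 and 132 in wild type. Array 1 of K4,79R alone stood low: the log2 difference was -0.40 ± 0.32 with it and 0.024 without it. ARO8, an aromatic aminotransferase gene, overlapped between strains at 1325 ± 102 in K4,79R and 1330 ± 116 in wild type.

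The genes next to the 10 on their chromosomes, in the order of the RefSeq table of assembly R64, were looked up after the values were seen. Of 20 such neighbours 19 were tested and 3 were called, against 4.26% of all genes. The groups did not overlap for 9 of the 19, against 28.8% of all genes. MDE1, a methionine salvage gene beside BNA1, fell to 158 in K4,79R, against 256 in wild type (log2 -0.69 ± 0.12, limma adjusted p = 0.0252). TMA10, beside NMA1, rose to 34.9 in K4,79R, against 14.1 in wild type (log2 1.11 ± 0.18, limma adjusted p = 0.0186), while NMA1 was at -0.49. PTP2, a protein tyrosine phosphatase gene beside NPT1, was likewise higher (log2 0.70 ± 0.15, limma adjusted p = 0.0471), with NPT1 at -0.32. Next to BNA2, YJR079W read 78.8 in K4,79R and 39.3 in wild type (log2 0.91 ± 0.28, limma adjusted p = 0.107), and MIR1 on the other side was at 0.32 ± 0.12. Both neighbours of BNA6, CNN1 and RMD8, overlapped between strains, at log2 differences of -0.026 and -0.043. BNA6 lies closest to a chromosome end of the 10, with 9 protein-coding genes between it and the end, and BNA4 follows with 15, while the others have at least 84.

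**Figure D4:**
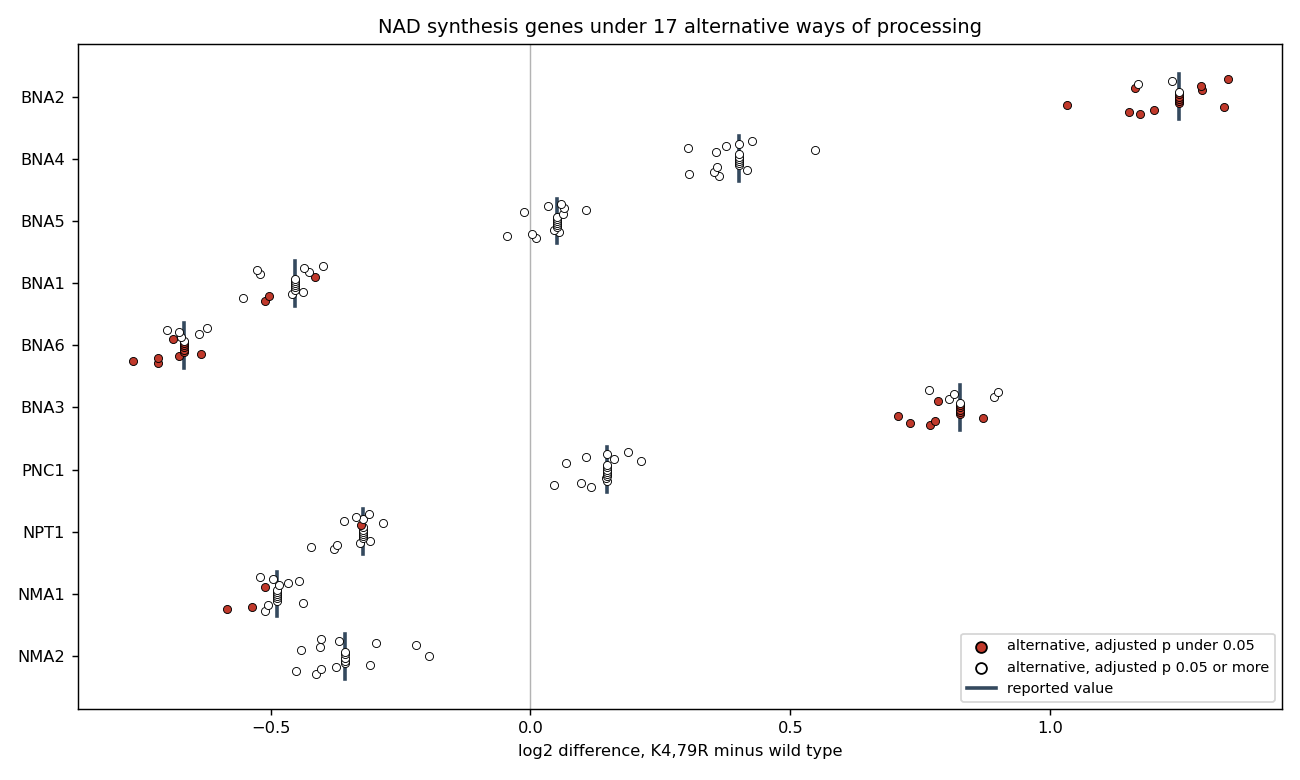
Log2 difference, K4,79R minus wild type, of each of the 10 genes under 17 alternative ways of processing (points, filled where the limma adjusted p was under 0.05; 6 of them leave out 1 array) beside the reported value (vertical line). The points of BNA5 cross 0; those of the other 9 genes stay on one side, BNA2 between 1.03 and 1.34 and BNA6 between -0.77 and -0.62.

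Over these 17 alternatives BNA2 was called in 14, BNA3 and BNA6 in 11 each, BNA1 and NMA1 in 3 each and NPT1 in 1. BNA4, BNA5, PNC1 and NMA2 were called in none of them. Under quantile normalization, a common median or division by the constants the log2 difference of BNA2 less the median of all genes was at most 1.21, and that of BNA6 was between -0.71 and -0.69.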

How the data were processed

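Labelled cRNA from 6 yeast RNA samples, 3 H3 K4,79R and 3 wild type by their titles, was hybridised to Affymetrix yeast arrays. The deposited values are intensity on a linear scale, 1 signal per probe set and array, and the submitters' processing notes name MAS5, with no version. Wild-type values have 1 decimal. Each K4,79R array's deposited values are whole multiples, within 0.001 of a step, of 0.1 times a constant: 0.922, 1.09 and 1.11 for arrays 1, 2 and 3, whose basis the sources used here do not give. Trimmed means differed 1.199-fold, below the limit of 1.2 set for rescaling, so values were used as deposited. They were 115, 136 and 138 on the K4,79R arrays 1, 2 and 3, in the order of the constants, and 125 on each wild-type array. Divided by its constant, each K4,79R trimmed mean comes to about 125 as well, so the spread in trimmed means follows the constants.

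Of 9335 probe sets, 60 controls were left out; 6504 of the rest had 1 gene, 328 several and 2443 none. The 6504 were matched to RefSeq by gene ID. The offset was 0.1 of the median array median. A gene was taken from its brightest probe set. Limma 3.58.1 in R 4.3.3 (lmFit, eBayes with an intensity trend, two-sided, 4 residual degrees of freedom) was fitted to all genes and tested on simulated data. Permuting 3 against 3 arrays exactly gives no p under 0.1, so this was not run. The number of arrays limits the precision. Members and lists were chosen with earlier results of these data known. By rule every one of the 10 genes is named, and of the 41 further genes each called one and the 2 with the largest difference per role. QNS1, TNA1, NRT1, HST1, HST2, HST3, HST4, RFM1, SIR2, ARO8, TRP1 and the chromosome neighbours were added for their role after their values were seen. Promoter motifs were not analysed here. Alternatives were scaling, offset, filter, probe set rule, variance prior, replicate block and each array left out.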

Additional observations from a re-analysis of the deposited data

How the results depend on the processing

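Of 170 values of the 10 genes under 17 alternatives, 146 kept their sign and side of the threshold, 15 lost and 7 gained a call, and 2 turned sign: the log2 difference of BNA5 was -0.045 with a common median and between -0.013 (without K4,79R array 2) and 0.11 with single arrays left out. That of ARO7, a further gene, was between -0.64 and 0.024 (without K4,79R array 1) with single arrays left out. Scaling moved the number of lower calls among all genes from 78 to 187 (quantile), 202 (common median) and 165 (constants divided out), among the 10 genes to 2, 2 and 3, and among the 41 further genes from 0 to 2, 2 and 3. An offset 4 times larger gave 1 lower call among the further genes, and eBayes without a trend 50 lower calls among all genes.

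With single arrays left out, higher calls among all genes were between 16 and 863, and lower calls between 5 and 260. Among the 10 genes there were 0 to 2 higher and 0 to 4 lower calls, and among the further genes 0 to 6 higher and 0 to 4 lower. Same-numbered arrays deviated from their group means with r of -0.15, 0.066 and -0.018, and differently numbered ones with r between -0.27 and 0.27. With 3 arrays per strain, these values cannot decide whether the replicate numbers pair the samples. With the replicate number as a block, 18 higher and 6 lower genes were called, and 0 higher and 0 lower of the 10, with limma adjusted p of 0.0598 for BNA2, 0.0803 for BNA6 and 0.0864 for BNA3. The block leaves fewer residual degrees of freedom. Dim genes such as RFM1 lie near background, which limits what can be seen of them.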
